A study of Mus musculus with 9 samples.

Results

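10 genes of the oxygen-sensing pathway were followed in the hippocampus of 11-day-old mice that lacked the glutamine transporter gene Slc38a3 in endothelial cells. They were taken by symbol from a deposited table of 57180 genes, in which each of the 10 had 1 row. The genes include Hif1a and Epas1, which encode alpha subunits of the hypoxia-inducible factors (HIF). They also include Egln1 and Egln3, which encode hydroxylases that sense oxygen. The other 6 are known targets: Bnip3, Pdk1, Higd1a, Adm, Ndrg1 and Mxi1. With means above the minimum of 10 normalized counts, all 10 were among the 17036 genes tested. A normalized count is the number of reads of a gene divided by 1 scaling factor per library.

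4 animals carried the conditional knockout (Slc38a3 cKO) and 5 were wild type (WT), all on a C57BL6 background and sampled at the age of 11 days. By sex, there were 3 males and 1 female with the knockout, against 1 male and 4 females without it. The labels place the knockout in endothelial cells, while the RNA came from the whole hippocampus. Neither the Cre driver nor the deleted exons nor the litters are named in the labels. In bulk RNA of this kind, fewer cells of a type and less RNA per cell cannot be told apart.

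When oxygen is plentiful, the EGLN prolyl hydroxylases modify the HIF alpha subunits, and the VHL ubiquitin ligase then marks them for destruction. When oxygen falls the alpha subunits persist, pair with ARNT or ARNT2 and bind short DNA elements with the core ACGTG or GCGTG near genes of glycolysis, mitochondrial turnover, vessel growth and growth arrest. Because this control acts mainly on the protein, the transcript level of a HIF subunit need not follow HIF activity, and the transcripts of the targets are the usual readout in RNA data. In the brain, Hif1a is expressed widely, while Epas1 is known mainly from endothelial cells, pericytes and astrocytes.

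The deleted gene was examined first. Slc38a3 held 307.7 to 405 normalized counts in the 4 cKO libraries and 1804 to 3514 in the 5 WT libraries, so the groups did not overlap (7.97-fold lower in cKO, limma adjusted p = 5.54e-05). WT was not uniform, with 2033 and 1804 in WT replicates 2 and 5 and 3392, 3514 and 3363 in WT replicates 1, 3 and 4. Depth was even, with 30803135 to 34034530 reads recovered per library. Of the 47 markers of 8 cell types, none was at 0 in all libraries, and the neuronal list summed to 190381 to 217429 normalized counts.

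None of the 10 genes passed the test between cKO and WT (limma with sex as a term, Benjamini-Hochberg adjusted p under 0.05 over all genes tested). Over all 17036 genes 0.346% passed, so that a count of 0 among 10 lies near the background. At an unadjusted p under 0.05 there were 2, Mxi1 and Ndrg1, where 11.3% of all genes tested reached that level. On the recovered reads, edgeR (0.335% of all genes passing) and DESeq2 (1.17%) also called 0 of the 10. The smallest adjusted p was 0.168, for Mxi1. The log2 fold change was below 0 for 8 of the 10 and above 0 for Mxi1 and Egln1, with a median of -0.056 beside -0.0034 over all genes tested. The groups did not overlap for 1 of the 10, Higd1a, against 6.29% of all genes tested.

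**Figure D1:**
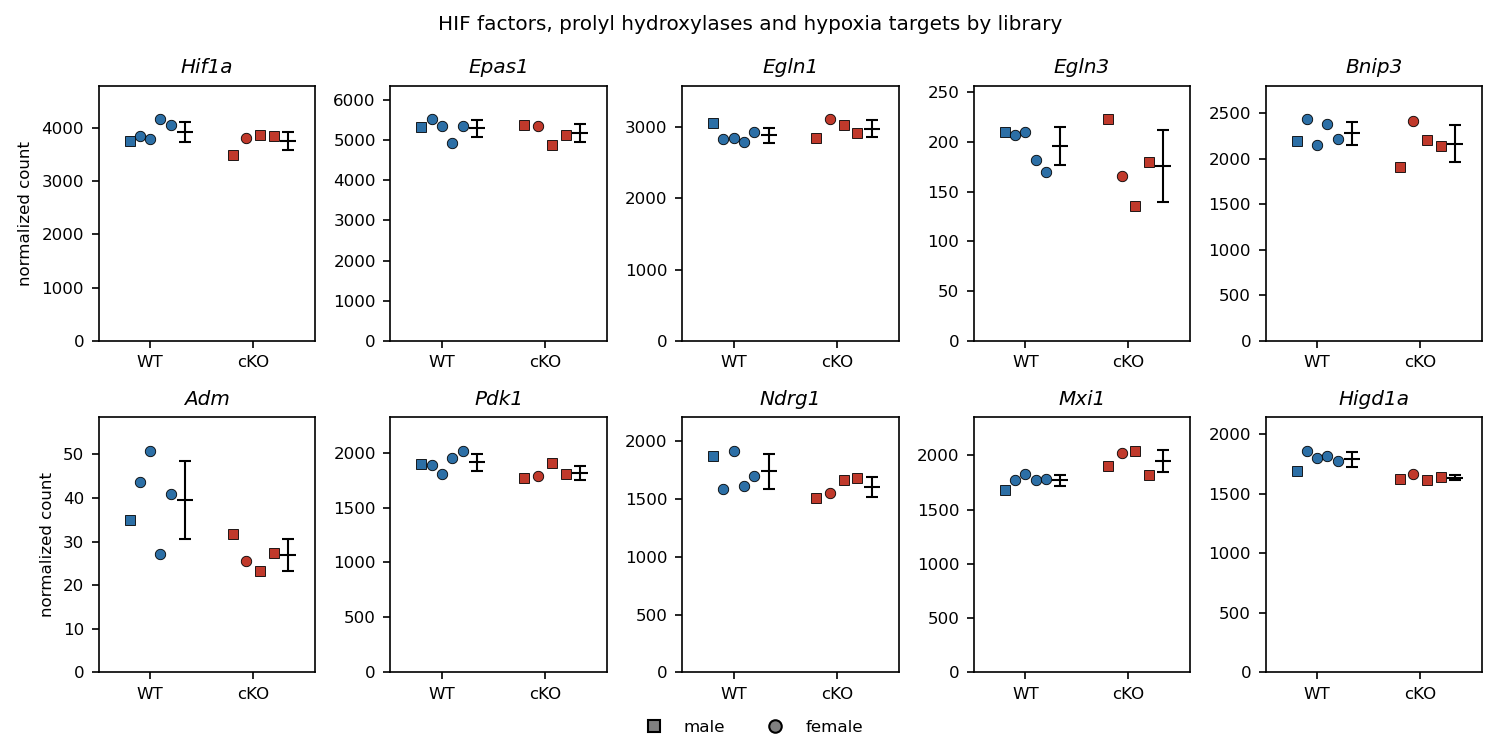
Normalized counts (vertical axes, from 0) of the 10 genes in the 5 WT (blue) and 4 cKO (red) libraries, squares for males and circles for females, with the mean and SD of each group in black. The 4 cKO values of Higd1a, 1619.6 to 1663, lie below all 5 WT values, 1690.3 to 1861, and the groups of the other 9 genes overlap.

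3 targets held the 3 kinds of outcome: Higd1a, whose groups did not overlap, Mxi1, the gene with the smallest p, and Bnip3. Bnip3 had the smallest fitted difference with sex as a term, but not without it. The promoters of these 3 targets are shown. Each is the 250 bases before an annotated start in RefSeq, build GRCm38.p6, printed 5′ to 3′ on the strand of the gene, with every ACGTG or GCGTG on either strand in capitals (CACGT and CACGC on the strand shown are matches on the other strand). The windows are chr9:121857797-121858046 on the minus strand for Higd1a, chr19:53329163-53329412 on the plus strand for 1 of 3 listed starts of Mxi1, and chr7:138909507-138909756 on the minus strand for Bnip3.
Higd1a: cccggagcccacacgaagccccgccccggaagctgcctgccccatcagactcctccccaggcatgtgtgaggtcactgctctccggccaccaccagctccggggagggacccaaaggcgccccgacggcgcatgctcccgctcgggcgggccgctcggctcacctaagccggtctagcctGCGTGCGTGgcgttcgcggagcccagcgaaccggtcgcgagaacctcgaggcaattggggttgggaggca
Mxi1: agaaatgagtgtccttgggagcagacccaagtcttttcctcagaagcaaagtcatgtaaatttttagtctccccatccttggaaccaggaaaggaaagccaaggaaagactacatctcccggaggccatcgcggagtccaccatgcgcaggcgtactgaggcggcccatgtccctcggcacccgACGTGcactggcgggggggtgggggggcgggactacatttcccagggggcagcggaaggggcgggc
Bnip3: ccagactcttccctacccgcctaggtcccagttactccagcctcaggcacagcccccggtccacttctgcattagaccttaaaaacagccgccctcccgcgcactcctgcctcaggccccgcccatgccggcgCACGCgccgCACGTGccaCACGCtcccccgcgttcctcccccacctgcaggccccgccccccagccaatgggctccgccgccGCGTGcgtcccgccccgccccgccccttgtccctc

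Higd1a held 2 overlapping GCGTG matches, 70 and 66 bases before its start. Mxi1 held 1 ACGTG match 66 bases before the start shown. Of its windows not shown, chr19:53329445-53329694 held 1 ACGTG match, 25 bases before its start. The most upstream one, chr19:53310256-53310505, held 0 matches. Bnip3 held 5 matches, of which 2 are the 2 strands of 1 palindrome, CACGTG, that is also the E-box read by other basic helix-loop-helix factors. RefSeq entries were found for 8 of the 10 genes, and each of these 8 had a match in at least 1 of its windows. Among all 27025 genes with an entry, 41.5% had one, and of the 32851 windows 38.6% held ACGTG or GCGTG and 16.6% held ACGTG. A match of 5 letters is common in windows of this length and is given as a description of the sequence only.

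The 2 HIF alpha subunits were nearly level between the genotypes. Hif1a (ENSMUSG00000021109, chromosome 12, 73948148 to 73994304 in GRCm39) held 3491, 3811, 3862 and 3845 normalized counts in cKO replicates 1 to 4, and 3748, 3849, 3789.6, 4161 and 4061 in WT replicates 1 to 5. 3 of the 4 cKO libraries lay inside the WT range and cKO replicate 1 lay below it. The cKO mean was 3753 ± 175.5 (SD, n = 4) and the WT mean 3922 ± 180.1 (SD, n = 5). This gave a log2 fold change of -0.032 ± 0.0505 (SE, limma adjusted p = 0.843), with a 95% interval from -0.14 to 0.076.

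Epas1 (ENSMUSG00000024140, chromosome 17, 87061127 to 87140838), which encodes HIF-2 alpha, held 5373, 5347, 4874 and 5123 normalized counts in cKO replicates 1 to 4. The WT replicates 1 to 5 held 5322, 5518, 5339.7, 4936 and 5345. The lowest library of either group, cKO replicate 3 and WT replicate 4, lay close together, and the groups overlapped. Genotype shifted the fitted level by -0.018 ± 0.0495 on the log2 scale (SE, limma adjusted p = 0.920), with a 95% interval from -0.12 to 0.089. As a fold of the WT level, the 95% intervals ran from 0.907 to 1.05 for Hif1a and from 0.917 to 1.06 for Epas1, so that larger differences lay outside them.

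The ratio of the 2 subunits within a library does not depend on how that library was scaled. Epas1 over Hif1a was 1.54, 1.40, 1.26 and 1.33 in cKO replicates 1 to 4 and 1.42, 1.43, 1.409, 1.19 and 1.32 in WT replicates 1 to 5. The highest ratio was that of cKO replicate 1, where Hif1a was lowest, and the lowest that of WT replicate 4, where Hif1a was highest. On the log2 scale the mean cKO ratio was 0.46 ± 0.122 (SD, n = 4) and the mean WT ratio 0.43 ± 0.115 (SD, n = 5), a difference of 0.032 (exact two-sided permutation test over 126 splits, p = 0.698, where the smallest possible p is 0.00794). Unlike the limma fit, this test held no sex term, and the sexes were split unevenly between the genotypes. The sign of the small difference in the ratio turned without WT replicate 4 (-0.014) or without cKO replicate 1 (-0.020).

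The 2 hydroxylase genes differed in how much they varied. Egln1 (ENSMUSG00000031987, chromosome 8, 125635325 to 125676063), which encodes PHD2, the main oxygen sensor of the pathway, held 2847, 3112, 3034 and 2914 normalized counts in cKO replicates 1 to 4. The WT replicates 1 to 5 held 3057, 2831, 2842, 2794 and 2927, a range that overlapped the cKO values. Its log2 fold change, 0.037 ± 0.0484 (SE, limma adjusted p = 0.809), had a 95% interval from -0.068 to 0.14.

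Egln3 (ENSMUSG00000035105, chromosome 12, 54225766 to 54250646), which encodes PHD3 and is itself induced by HIF, was a lowly expressed gene here. Its values were 222.7, 165.5, 135.4 and 180.1 normalized counts in cKO replicates 1 to 4, and 210.4, 206.7, 210.3, 181.7 and 169.9 in WT replicates 1 to 5. cKO replicate 1 held the highest value of all 9 libraries and cKO replicate 3 the lowest, so that the cKO libraries enclosed the WT range. The coefficient of variation was 20.6% in cKO and 9.59% in WT, beside a counting error of 7.30% at this depth. Its log2 fold change of -0.23 ± 0.154 (SE, limma adjusted p = 0.600) had a wide 95% interval, from -0.56 to 0.099.

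**Figure D2:**
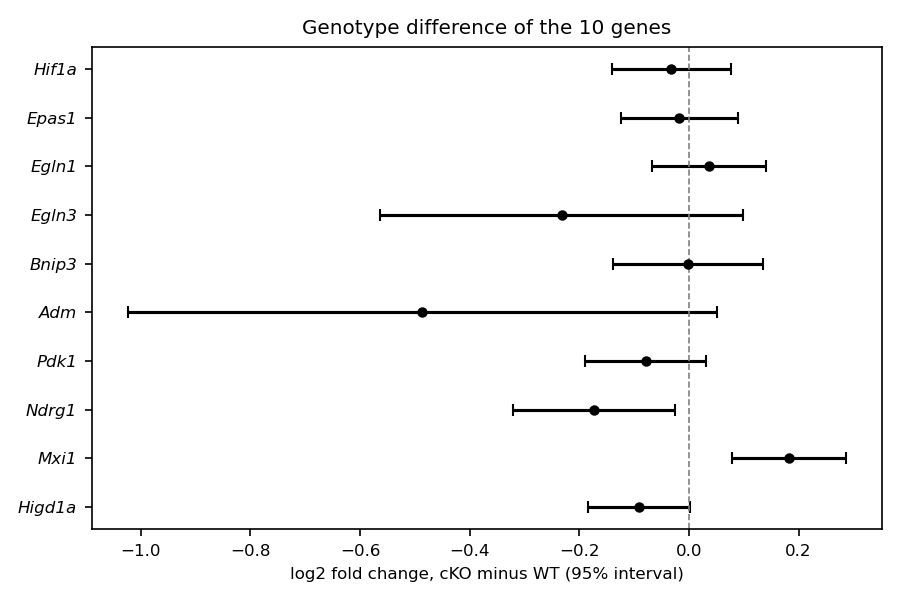
Log2 fold change, cKO minus WT (horizontal axis), of the 10 genes from the limma fit with sex as a term, with 95% intervals. The intervals of Ndrg1 and Mxi1 lie clear of 0 on opposite sides before adjustment for the number of genes, and those of Adm and Egln3, the 2 genes of lowest level, are the widest.

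Among the targets, 3 act at the mitochondrion. Higd1a (ENSMUSG00000038412, chromosome 9, 121677628 to 121687428) encodes a small inner membrane protein that binds the respiratory chain. It held 1619.8, 1663, 1619.6 and 1643 normalized counts in cKO replicates 1 to 4 and 1690.3, 1861, 1804, 1815 and 1773 in WT replicates 1 to 5. All 4 cKO values lay below all 5 WT values, a separation in the direction of lower cKO that 3.72% of all genes tested showed. The lowest WT value was that of WT replicate 1, the only WT male. The cKO mean of 1636 ± 20.7 (SD, n = 4) compares with a WT mean of 1789 ± 63.5 (SD, n = 5). With sex as a term the log2 fold change came to -0.091 ± 0.0435 (SE, limma adjusted p = 0.451), and without the sex term -0.13 ± 0.0383 (limma adjusted p = 0.125). The gene thus did not pass in either fit, and its 95% interval ran from -0.18 to 0.0026 with the sex term.

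Bnip3 (ENSMUSG00000078566, chromosome 7, 138492564 to 138511248) encodes a receptor on the outer mitochondrial membrane for mitophagy. It held 1911, 2411, 2204 and 2140.5 normalized counts in cKO replicates 1 to 4 and 2196, 2434.5, 2154, 2384 and 2223 in WT replicates 1 to 5. The single cKO female, cKO replicate 2, lay near the top of the WT range, cKO replicate 3 lay inside it, and cKO replicates 1 and 4 lay below all 5 WT values. Without the sex term the log2 fold change of Bnip3 was -0.076 ± 0.0598 (SE, limma adjusted p = 0.580). With sex as a term the genotypes differed by -0.0010 ± 0.0635 (SE, limma adjusted p = 0.996), with a 95% interval from -0.14 to 0.14. Its close relative Bnip3l, also a mitophagy receptor, was at 0.075 ± 0.0433 (SE, limma adjusted p = 0.540).

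Pdk1 (ENSMUSG00000006494, chromosome 2, 71703567 to 71734202) encodes a kinase that shuts off pyruvate dehydrogenase and so keeps pyruvate out of the citric acid cycle. It held 1765, 1785, 1905 and 1801 normalized counts in cKO replicates 1 to 4 and 1899, 1886, 1800.45, 1946 and 2016 in WT replicates 1 to 5. 2 of the cKO values lay below all WT values, cKO replicate 4 lay beside the lowest of them, and cKO replicate 3 lay in the middle of the WT range. The fitted log2 difference, -0.079 ± 0.0514 (SE, limma adjusted p = 0.592), had a 95% interval from -0.19 to 0.032.

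The other 3 targets act outside the mitochondrion. Adm (ENSMUSG00000030790, chromosome 7, 110226867 to 110229027) encodes adrenomedullin, a peptide that widens vessels and acts on endothelial cells. It had the lowest level of the 10 genes, with 31.8, 25.5, 23.2 and 27.4 normalized counts in cKO replicates 1 to 4 and 34.9, 43.6, 50.85, 27.1 and 40.9 in WT replicates 1 to 5. 4 of the 5 WT libraries lay above all cKO libraries, and WT replicate 4 lay among them. The cKO mean was 27.0 ± 3.65 (SD, n = 4) and the WT mean 39.5 ± 8.98 (SD, n = 5). A log2 fold change of -0.49 ± 0.250 resulted (SE, limma adjusted p = 0.481), and its 95% interval, -1.02 to 0.051, was the widest of the 10. Counting error alone was 17.2% per library at this level, beside coefficients of variation of 13.5% in cKO and 22.7% in WT. The genes of its receptor, Calcrl and Ramp2, were at -0.093 ± 0.0849 and -0.12 ± 0.0824 (SE, limma adjusted p = 0.712 and 0.626).

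Ndrg1 (ENSMUSG00000005125, chromosome 15, 66801166 to 66841489) encodes a stress-responsive protein that is abundant in myelinating glia. It held 1506, 1550.2, 1665 and 1685 normalized counts in cKO replicates 1 to 4 and 1875, 1590.1, 1918, 1617 and 1700.1 in WT replicates 1 to 5. WT replicates 1 and 3 stood above the rest and WT replicates 2 and 4 lay inside the cKO range. The fitted log2 difference of -0.17 ± 0.0686 (SE, limma adjusted p = 0.366) had a 95% interval from -0.32 to -0.025, clear of 0 before but not after adjustment over all genes.

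Mxi1 (ENSMUSG00000025025, chromosome 19, 53298948 to 53364241) encodes a partner of MAX that opposes MYC and is induced under hypoxia. It held 1907, 2023, 2043 and 1820.8 normalized counts in cKO replicates 1 to 4 and 1685, 1775, 1826, 1774 and 1787 in WT replicates 1 to 5. 3 of the 4 cKO values lay above all WT values, and cKO replicate 4 lay just below the highest of them. Its cKO mean was 1949 ± 104.2 (SD, n = 4), beside a WT mean of 1769.5 ± 51.5 (SD, n = 5). The fit put cKO 1.13-fold above WT, a log2 difference of 0.18 ± 0.0484 (SE, limma adjusted p = 0.168) with a 95% interval from 0.078 to 0.29. Ranked by p over the 17036 genes tested, it stood at place 223.

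Levels of different genes can be set side by side only per length, here as normalized counts per kilobase of merged exons in GENCODE M21 (GRCm38), which may differ from the annotation behind the table. On that scale Bnip3 came first at 984 ± 72.4 (SD over 9 libraries), followed by Epas1 at 938 ± 38.7, Egln1 at 815 ± 31.6, Hif1a at 652 ± 32.1 and Higd1a at 566 ± 30.6. Mxi1 at 271 ± 17.5, Ndrg1 at 254 ± 21.0 and Pdk1 at 240.0 ± 10.9 formed a second tier, and Egln3 at 70.2 ± 10.5 and Adm at 20.9 ± 5.82 came last. The ranges over libraries overlapped between Bnip3 and Epas1, between Bnip3 (844 to 1075) and Egln1 (777 to 866), between Hif1a and Higd1a, and among Mxi1, Ndrg1 and Pdk1. Those of Epas1 and Egln1, of Egln1 and Hif1a, of Higd1a and Mxi1, of Pdk1 and Egln3, and of Egln3 and Adm did not.

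The 10 genes did not share 1 profile over the libraries. cKO replicate 1 held the lowest value of 4 genes (Hif1a, Bnip3, Pdk1 and Ndrg1) and the highest of Egln3, while cKO replicate 3 held the lowest of 4 others (Epas1, Egln3, Adm and Higd1a) and the highest of Mxi1. WT replicate 2 held the highest of Epas1, Bnip3 and Higd1a. Among the 13089 named genes with a mean of at least 50, the 3 whose profiles lay nearest to that of Hif1a, by root mean square distance of standardized log2 values over 9 libraries, were Cmpk1 (0.178), Chm (0.189) and Naa15 (0.232). For Epas1 they were Adam11 (0.321), Prr5 (0.365) and Mmp14 (0.374), at a larger distance than those of Hif1a. These distances are the smallest of many over 9 libraries and are a description only.

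**Figure D3:**
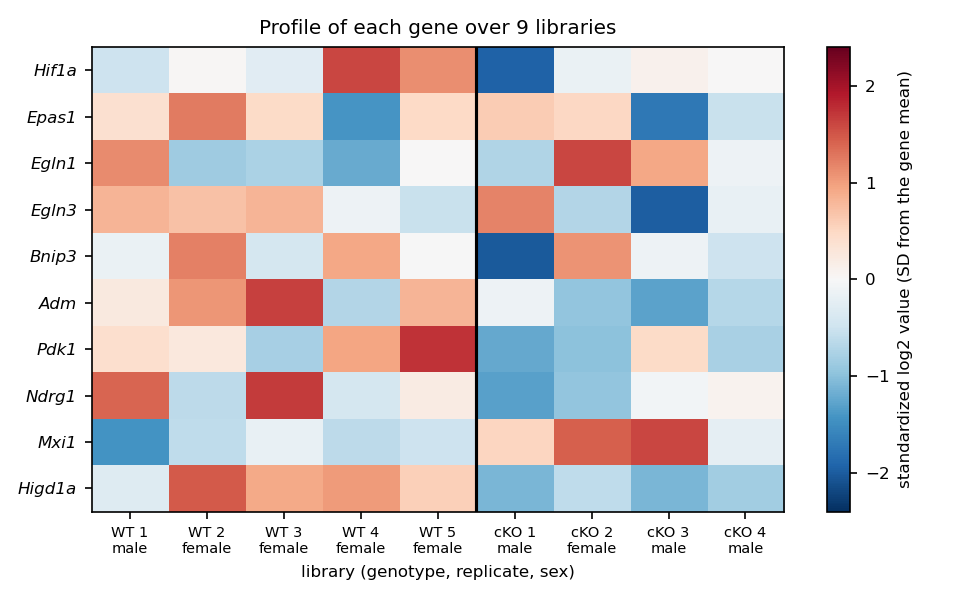
Log2 values of the 10 genes (rows) in the 9 libraries (columns, with genotype, replicate and sex), standardized to each gene's own mean and SD, red above and blue below the mean. Higd1a is below its mean in all 4 cKO libraries, and cKO replicates 1 and 3 hold the deepest blue of 4 genes each.

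Sex, the other labelled condition, was tested in the same fit. None of the 10 genes passed between males and females (limma adjusted p from 0.740 to 0.981), and 0.0528% of all genes tested passed. None had an unadjusted p under 0.05, a level that 6.73% of all genes tested reached. The difference nearest to the threshold was that of Bnip3, with a mean of 2113 normalized counts in the 4 males and 2321 in the 5 females (log2 difference, male minus female, of -0.14 ± 0.0635 SE, limma adjusted p = 0.740). The interaction of sex and genotype, which rests on 1 cKO female and 1 WT male, was not called for any of the 10 either (0.00587% of all genes tested passed). At an unadjusted p under 0.05 it had 1 of the 10, Egln1, against 7.9% of all genes tested. In males the 3 cKO values of Egln1, 2847 to 3034, lay below the WT value of 3057, and in females the cKO value of 3112 lay above the WT values of 2794 to 2927 (difference of the log2 fold changes -0.19 ± 0.0823 SE, limma adjusted p = 0.614).

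The rest of the pathway was followed in 4 lists of 101 genes, of which 100 were tested. The lists were drawn up with part of the whole-table results known, and Vegfa, Apln, Flt1 and Ndrg2 were known to pass. Counts from these lists are therefore no test of the pathway against all genes, and the shares over all genes are printed for scale only. Of the 100, 1 rose, 3 fell and 96 did not pass, beside 0.123% higher and 0.223% lower over all genes tested. The median log2 fold change of the 100 was -0.028. At an unadjusted p under 0.05 there were 24 of the 100, where 11.3% of all genes tested reached that level. Of 20 genes of HIF subunits and oxygen sensing none passed, and 6 had an unadjusted p under 0.05, beside the same 11.3% (median log2 fold change 0.0013). Hif3a, another HIF alpha subunit gene, was at -0.018 ± 0.178 (SE, limma adjusted p = 0.978). The beta subunit genes Arnt and Arnt2 were at -0.078 ± 0.0623 and -0.027 ± 0.0392 (SE, limma adjusted p = 0.672 and 0.831). Egln2, the gene of the third hydroxylase, was at 0.045 ± 0.0549 (SE, limma adjusted p = 0.793). The smallest p were those of Cited2, whose product competes with HIF for its coactivator (0.22 ± 0.0596, limma adjusted p = 0.186), of Hif1an, the asparaginyl hydroxylase gene (-0.13 ± 0.0479, adjusted p = 0.325), of Vhl (-0.12 ± 0.0457, adjusted p = 0.330) and of the chaperone gene Hspa8 (-0.11 ± 0.0420, adjusted p = 0.339). The groups did not overlap for 4 of the 20, against 6.29% of all genes tested. Among them were Cited2, at 1009 to 1180.4 normalized counts in cKO and 894 to 955 in WT, and, with cKO lower, Vhl and Hspa8.

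Of 29 metabolic targets none passed, 5 had an unadjusted p under 0.05 (11.3% of all genes tested), and 22 had a log2 fold change below 0 (median -0.082), where 51.2% of all genes tested did. Ldha, the lactate dehydrogenase gene, came nearest, at 9488 to 9924 normalized counts in cKO and 10871 to 11147 in WT, without overlap (-0.18 ± 0.0357 SE, limma adjusted p = 0.0568). Pgk1 was at -0.15 ± 0.0428, the glycogen gene Ppp1r3c at -0.18 ± 0.0666 and the hexokinase gene Hk2 at 0.23 ± 0.0654 (SE, limma adjusted p = 0.190, 0.330 and 0.2003). The groups did not overlap for 6 of the 29, against 6.29% of all genes tested. Beside Ldha these included Pgk1, Ppp1r3c and, with cKO higher, Hk2. Pgk1 and Hk2 are both HIF targets of glycolysis and lay on opposite sides of 0. Slc2a1, the glucose transporter gene of the barrier and a classical target, was at 0.064 ± 0.101 (limma adjusted p = 0.847).

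The 3 genes that fell were all among 25 vascular, matrix and iron targets, of which 22 did not pass (median -0.051) and 10 had an unadjusted p under 0.05, beside 11.3% of all genes tested. They were Vegfa, the main vessel growth factor gene, Apln, which encodes the peptide apelin, and Flt1, a VEGF receptor gene. Vegfa held 1726 to 1886 normalized counts in cKO and 2129.6 to 2307 in WT, without overlap (-0.31 ± 0.0502 SE, limma adjusted p = 0.0220). Apln held 449.9 to 559 in cKO and 657 to 820.5 in WT (-0.45 ± 0.0753 SE, adjusted p = 0.0248), and Flt1 1155 to 1355.5 in cKO and 1495 to 1675 in WT (-0.34 ± 0.0640 SE, adjusted p = 0.0417). The groups did not overlap for 6 of the 25, against 6.29% of all genes tested. Vegfa and Adm are both secreted vascular targets of HIF, and Adm did not pass. Kdr, the other VEGF receptor gene, was just beyond the threshold (-0.25 ± 0.0503 SE, limma adjusted p = 0.0568). The call of Flt1 held in 1 of the 9 fits that left out 1 library, that without cKO replicate 3, and was lost in the other 8. Vegfa lost its call without WT replicate 1 or cKO replicate 2, and Apln without either of these, WT replicate 2 or cKO replicate 1. Leaving out cKO replicate 2, the only cKO female, gave the fold changes of the males-only fit, which has 1 WT male. Leaving out WT replicate 1, the only WT male, gave those of the females-only fit, which has 1 cKO female. For Vegfa these were -0.25 and -0.36. These 2 fits are thus no evidence separate from the single-sex fits. Without WT replicate 2 or cKO replicate 1, 2 of the 4 other pathway genes that passed kept their call.

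Of 26 survival and regulatory targets, 1 rose and 25 did not pass (median -0.017), and 3 had an unadjusted p under 0.05, beside 11.3% of all genes tested. The groups did not overlap for 3 of the 26, against 6.29% of all genes tested. The gene that rose was Ndrg2, a relative of Ndrg1 that is abundant in astrocytes, at 14190 to 16466 normalized counts in cKO and 12124 to 12691 in WT, without overlap (0.32 ± 0.0399 SE, limma adjusted p = 0.00369). Ndrg2 lost its call in 1 of the 9 fits that left out 1 library, that without cKO replicate 2. Ndrg1 lay on the other side of 0, and the difference between the 2 genes was not tested. Wsb1, a ubiquitin ligase gene, was at -0.24 ± 0.0489 (limma adjusted p = 0.0625), the clock-linked repressor gene Bhlhe41 at 0.22 ± 0.0653 (adjusted p = 0.221) and Ankrd37, a strongly hypoxia-induced gene, at -0.39 ± 0.187 (adjusted p = 0.454). These lists and the whole-table results behind them were known in part before they were drawn up, and Vegfa, Apln, Flt1 and Ndrg2 were known to pass.

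**Figure D4:**
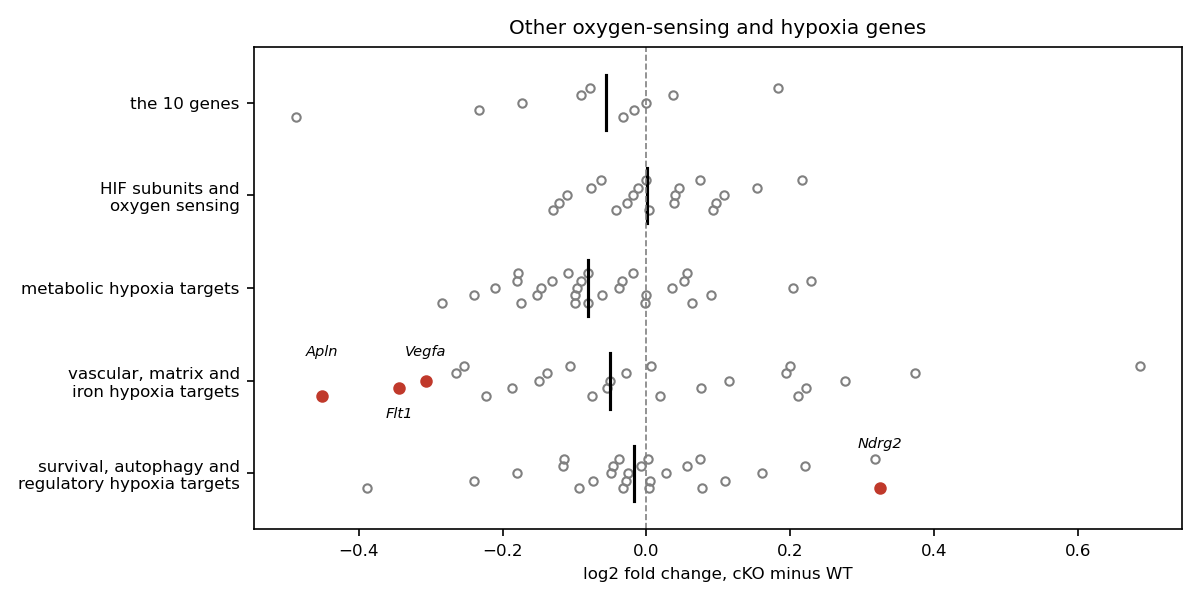
Log2 fold change, cKO minus WT (horizontal axis), of the 10 genes and of 4 lists of other pathway genes, 1 point per gene, filled and named where the limma adjusted p is under 0.05, with a black line at each median. Points of every list lie on both sides of 0, and only Apln, Flt1, Vegfa and Ndrg2 are filled.

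Markers of the cell types in the tissue were summed in each library beside these genes. All 6 endothelial markers had a log2 fold change below 0 and 1 passed, Flt1, with sums of 6172 to 6909 normalized counts in cKO and 7059.6 to 7851 in WT. Of 6 mural markers 5 were below 0 and none passed, with sums of 10104 to 11491 in cKO and 11819 to 12951 in WT. All 6 meningeal markers were above 0 and none passed, with sums of 7395 to 8842 in cKO and 5259 to 8831 in WT. The sums of the 6 oligodendrocyte markers, 20969 to 32164 in cKO and 20697 to 30894 in WT, and of the 6 astrocyte markers, 140041 to 147983 in cKO and 138239 to 154296 in WT, overlapped. All 6 oligodendrocyte markers were above 0 and none passed. Among the astrocyte markers the water channel gene Aqp4 fell (-0.35 ± 0.0403 SE, limma adjusted p = 0.00206), the filament gene Gfap rose (0.29 ± 0.0553 SE, adjusted p = 0.0420) and 4 did not pass. The sums of the 6 microglial markers, 7923 to 8905 in cKO and 9086 to 9766 in WT, did not overlap, and neither did those of the 6 neuronal markers, 190381 to 203871 and 208611 to 217429. The 5 blood markers summed to 1723 to 2342 in cKO and 2062 to 3383 in WT, and no microglial, neuronal or blood marker passed. All 6 microglial and all 5 blood markers had a log2 fold change below 0, as did 4 of the 6 neuronal and 3 of the 6 astrocyte markers. A sum is weighted toward its most abundant marker, such as Camk2a (neuronal), Rgs5 (mural) and Slc1a2 (astrocyte). Taken singly, the groups did not overlap for 2 endothelial, 1 mural, 3 microglial, 2 neuronal and 2 astrocyte markers. No oligodendrocyte, meningeal or blood marker separated the groups, and 6.29% of all genes tested did.

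Once the mean of the meningeal markers entered the fit as a covariate, Adm was at a log2 fold change of -0.97 ± 0.299 in place of -0.49 (limma adjusted p = 0.699), that of Egln3 was -0.45 ± 0.202 in place of -0.23 (adjusted p = 0.822) and that of Mxi1 was 0.18 ± 0.0711 (adjusted p = 0.796). With the mean of the endothelial markers, Ndrg1 was at -0.056 ± 0.0959 in place of -0.17 (limma adjusted p = 0.855), Mxi1 at 0.27 ± 0.0659 (adjusted p = 0.197) and Epas1 at -0.020 ± 0.0762 (adjusted p = 0.940). Neither covariate brought any of the 10 genes past the threshold, which 3 (meningeal) and 11 (endothelial) of the 17036 genes tested passed. The mean log2 value of the endothelial markers was 9.90 to 10.07 in cKO and 10.085 to 10.24 in WT, without overlap. Genotype and this covariate are thus hard to separate in the fit. The meningeal means, 9.74 to 9.97 in cKO and 9.30 to 9.96 in WT, overlapped.

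Of the 4 pathway genes that had passed, none did with either covariate. Calls were lost over all genes too, from 59 in the main fit to 3 with the meningeal and 11 with the endothelial covariate. The SE of Vegfa was 0.0502 in the main fit and 0.0760 with the endothelial covariate. Calls lost under a covariate so close to genotype cannot decide the part of endothelial cells. With the meningeal covariate the log2 fold changes were as far from 0 as before or farther, at -0.39 ± 0.0656 for Vegfa, -0.56 ± 0.1001 for Apln, -0.43 ± 0.0866 for Flt1 and 0.34 ± 0.0583 for Ndrg2 (SE, limma adjusted p = 0.0985, 0.119, 0.219 and 0.104). With the endothelial covariate Vegfa was at -0.33 ± 0.0760, Apln at -0.38 ± 0.113 and Ndrg2 at 0.32 ± 0.0616 (SE, limma adjusted p = 0.175, 0.276 and 0.139). The 6 endothelial markers include Flt1 and Kdr themselves, so that the value of Flt1 in that fit, -0.21 ± 0.0839, is no test of it. When the covariate was taken from the other 4 endothelial markers, a choice made after seeing the data, Vegfa (-0.32 ± 0.0559 SE, limma adjusted p = 0.0374) and Ndrg2 (0.33 ± 0.0453, adjusted p = 0.0102) passed, as did Wsb1 (-0.28 ± 0.04996, adjusted p = 0.0430). In the same fit Apln was at -0.42 ± 0.0842 and Flt1 at -0.29 ± 0.0676 (SE, limma adjusted p = 0.0664 and 0.0867), and none of the 10 genes passed. Over all genes tested, 52 passed in that fit. These fits do not settle the part of endothelial or meningeal cells in these values, and that of the other cell types was not tested.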

How the data were processed

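Total RNA of 9 hippocampi was made into directional libraries, per the labels' protocols. FastQC 0.12.1, cutadapt 4.4, STAR 2.7.10b, DESeq2 1.41.8 and the GRCm39 build are named in the submitters' processing notes. No source used here names the read counter, the annotation release or the strand setting. The values deposited by the authors are a signal per gene and library, namely counts of reads scaled by library. Each read adds a fixed step to the value (0.943 to 1.08 by library), which is the reciprocal of the scaling factor. Division by that step gave whole reads within 0.1 read for 100.0% of values above 0, although in cKO replicate 1 and WT replicates 1 and 4 the step is too near 1 to show at low values. No column was left out. The spans of 9 other genes overlapped those of 7 members, with strand and exons not considered. The mean of each was at most 0.867% of the member's mean. Whether reads were assigned to the wrong gene was not tested. Aldoa has 2 rows, and the higher one was used.

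Genotypes were compared with limma-trend (limma 3.58.1, R 4.3.3) after log2(normalized count + 1). The model held genotype and sex, and 17036 genes reached the minimum mean of 10. Fold changes are on that scale, which understates those of low genes. edgeR 4.0.16 and DESeq2 1.42.0 ran on the recovered reads as alternatives. The other alternatives were pseudocounts of 0.5 and 5, other filters, TMM scaling, no sex term, each sex alone, 2 marker covariates, the endothelial one also without Flt1 and Kdr, and each library left out. The fit was tested on simulated data. Intervals come from the moderated fit. Replicate numbers follow record order and pair no samples. The labels name no litters, so p-values measure only the spread between these samples. The chi-square per gene between 2 libraries of a group was 3.62 to 12.9, above sampling noise. Named genes were Slc38a3, the 10 members, the passing genes of each pathway list or otherwise up to 4 of smallest p, and the 3 nearest profiles of Hif1a and Epas1. Others (Hif3a, Arnt, Arnt2, Egln2, Bnip3l, Calcrl, Ramp2, Slc2a1, Kdr, Aqp4, Gfap, Camk2a, Rgs5, Slc1a2 and those beside a passing gene) were chosen after their values were seen. The members and lists were chosen with earlier results of these data known. Python 3.11.15 with pandas 2.3.3, numpy 2.4.6, scipy 1.17.1 and matplotlib 3.10.9 did the rest.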

Additional observations from a re-analysis of the deposited data

Results flagged for a closer look

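1 library stood apart from its group in 1 of the 22 groups of values examined for the 10 genes and Slc38a3, where chance gives about 1 in 20. It was cKO replicate 1 for Hif1a, at 3491 normalized counts, while the other 3 cKO libraries held 3811 to 3862. Without it the log2 fold change of Hif1a was -0.012. The check looks for 1 library apart from the rest, so it did not flag WT replicates 2 and 5, which both lay low for Slc38a3 (2033 and 1804).

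Egln1 had values that lay on opposite sides in the sexes, with all 3 male cKO libraries below the 1 WT male and the 1 cKO female above all 4 WT females. The genotype effect in males minus that in females was -0.19 on the log2 scale (limma adjusted p = 0.614), so that the difference did not pass.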

How the results depend on the processing

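The count of 0 of the 10 genes for genotype held under all 23 alternatives, and those for sex and for the interaction held under the alternatives run for them. The smallest adjusted p of any member in any of them was 0.0713 (Mxi1, DESeq2). DESeq2 gave no adjusted p for Adm, and a filter at a mean of 50 left Adm out. Egln3, Adm, Pdk1, Ndrg1, Mxi1 and Higd1a kept their sign in every alternative that gave a value, with Mxi1 from 0.14 to 0.27 and Higd1a from -0.13 to -0.055. With sex in the fit, leaving out cKO replicate 2 gave the fold changes of males only, and leaving out WT replicate 1 those of females only. Differences near 0 turned. Bnip3 was at 0.070 in females only, 0.13 with the meningeal and 0.023 with the endothelial covariate (0.016 without Flt1 and Kdr in it, chosen after seeing the data), 0.0011 without WT replicates 2 and 5 (chosen after seeing the data, since they stand apart in Slc38a3), 0.0050 with edgeR and 0.0013 with DESeq2, and from -0.077 to 0.070 with 1 library left out. Epas1 was at 0.018 in females only and from -0.056 to 0.018 with 1 library left out, Egln1 at -0.061 in males only and from -0.061 to 0.13 with 1 library left out, and Hif1a at 0.036 with the meningeal covariate. The difference between cKO and WT in the log2 ratio of Epas1 to Hif1a ranged from -0.020 to 0.075 with 1 library left out. The cause was not tested. The count of 4 other pathway genes was 10 without the sex term, 7 with DESeq2, 1 in females only, 0 in males only, 0 with either covariate (3 with the endothelial one without Flt1 and Kdr) and 1 without WT replicates 2 and 5, and from 0 to 4 with 1 library left out. The count over all genes, 59, ran from 3 (males only or the meningeal covariate) to 216 (no sex term). No paired analysis was possible because the labels give the groups no shared replicate numbers. Depth limits Adm most, with a counting error of 17.2% per library.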
